A study of Homo sapiens with 4 samples.

Results

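The enzymes that carry squalene to cholesterol were examined in LV-M100 breast cancer cells depleted of the splicing factor SNRNP40. The 9 genes were set by name from the late cholesterol pathway, and all 9 were listed among the 23217 gene symbols of the deposited table, with 18 of its 44578 transcripts. In pathway order they are SQLE, LSS, CYP51A1, TM7SF2, MSMO1 (older symbol SC4MOL), NSDHL, HSD17B7, SC5DL (current symbol SC5D) and DHCR7. LV-M100 is a single clone derived from the line MDA-MB-231, a triple-negative breast cancer line, and was selected for low variability between cells. Cells were transfected with siRNAs and total RNA was collected 48 h later, depleted of ribosomal RNA and sequenced, giving 4 libraries. Of these, 2 received control siRNAs (siControl, with NC1 in replicate 1 and BLOCK-iT Fluorescent Oligo in replicate 2) and 2 received siRNAs against SNRNP40 (siSNRNP40 #1 in replicate 1 and siSNRNP40 #2 in replicate 2).

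Cholesterol synthesis past squalene runs from squalene epoxidation and ring closure to lanosterol, through the removal of methyl groups and the shifting and reduction of double bonds, to cholesterol. The enzymes sit in the endoplasmic reticulum, and many of their genes are transcribed under SREBP-2 (gene SREBF2), a transcription factor released from the endoplasmic reticulum membrane when sterol is low and held there by INSIG proteins when it is high. In cultured cells, which take up cholesterol from serum and also make it, the genes of this pathway are known to move together with sterol supply.

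The sequences that the sample labels give for the SNRNP40 siRNAs are shown because each siSNRNP40 value combines a library of each, and the siRNAs cannot be told apart:
siSNRNP40 #1: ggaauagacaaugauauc
siSNRNP40 #2: ggauuugaccgacugaua
SNRNP40, a component of the U5 snRNP of the spliceosome, had 40.4 FPKM with siControl and 6.12 FPKM with siSNRNP40, a log2 fold change of -2.72. FPKM adjusts fragment numbers for transcript length and for the mapped fragments of the library, so FPKM levels of different genes can be set side by side. Each gene was represented by the sum of FPKM over its listed transcripts, and every log2 fold change is siSNRNP40 over siControl. The table holds 1 value per transcript and condition, so no value has a replicate error and no difference was tested. Its sequencing depth is unknown because it holds no read counts. Summed FPKM was 516056 with siControl and 517152 with siSNRNP40. Of the markers of the line, VIM was at 750.1 FPKM with siControl and EGFR at 18.3 FPKM, whereas ESR1, PGR and CDH1 were below 0.1 FPKM. EPCAM, which was expected to be low, was at 10.6 FPKM and so went against the marker list, and of the markers of other cell types PTPRC and ALB were listed at 0 and PECAM1 was at 0.922 FPKM.

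All 9 enzymes passed the expression limit of a mean of 1 FPKM, and 8 of the 9 were lower with siSNRNP40. The largest differences were those of MSMO1 (log2 fold change -0.87), the oxidase that opens the later sterol demethylation cycle, and HSD17B7 (-0.73), the ketoreductase of the same reaction cycle. TM7SF2, a sterol reductase, was the enzyme with a higher value (0.31), and NSDHL was nearly level (-0.051). The median log2 fold change of the 9 enzymes was -0.30, beside 0.0034 for all 12334 expressed genes. Among those genes, 49.5% were below 0, 5.06% were below a log2 fold change of -0.5 and 0.657% were below -1, while 5.24% were above 0.5. Of the 9 enzymes, 2 were below -0.5, 0 were below -1 and 0 were above 0.5. The middle 90% of expressed genes lay between -0.50 and 0.51, and 7 of the 9 enzymes lay within these limits. The range was narrower, from -0.405 to 0.331, for the 4052 genes with a mean of 20 FPKM or more. Of the enzymes at that level, MSMO1 lay below this range, CYP51A1 (-0.407) at its lower edge and NSDHL within it. With only the most expressed transcript of each gene, 6 of the 9 enzymes were lower, because LSS (0.23) and NSDHL (0.068) turned positive.

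**Figure D1:**
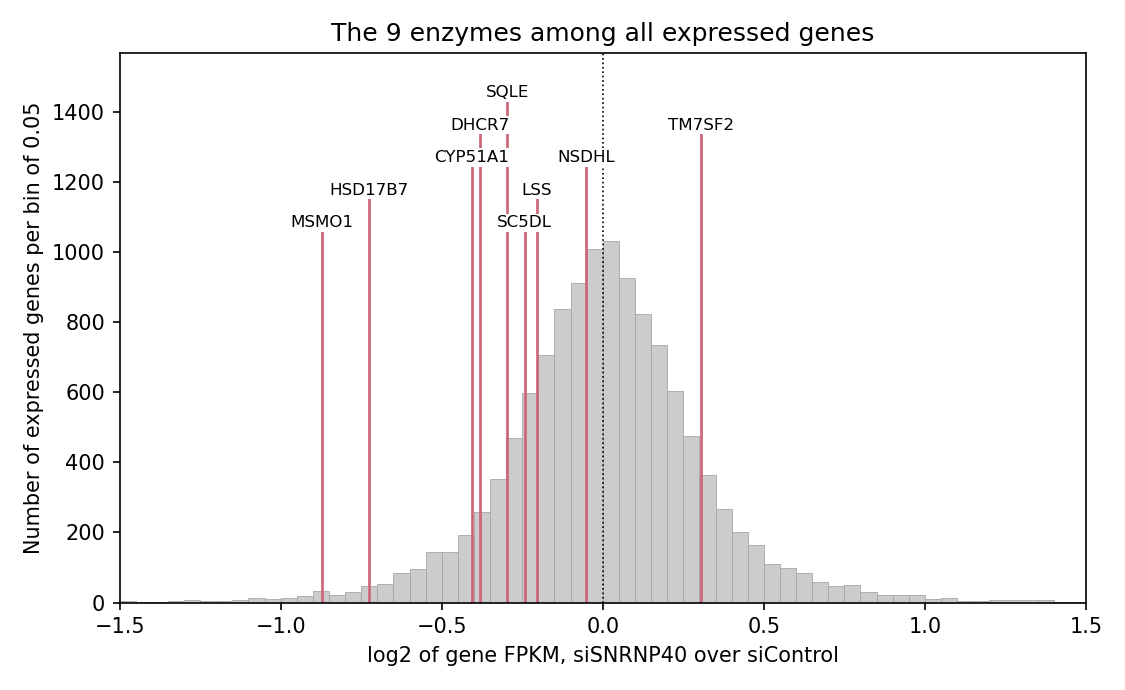
The horizontal axis is the log2 of gene FPKM, siSNRNP40 over siControl, and the grey bars count expressed genes in bins of 0.05, with 54 genes outside the axis. Red lines mark the 9 enzymes: MSMO1 and HSD17B7 lie in the left tail, TM7SF2 lies right of 0, and the other 6 lie between -0.41 and -0.05.

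Summed over the 9 genes, FPKM was 218.5 with siControl and 165.1 with siSNRNP40, a log2 fold change of -0.40. CYP51A1 made up 46.4% of this sum with siControl and 46.3% with siSNRNP40. Without it the sum was 117.2 and 88.6 FPKM, again with a log2 fold change of -0.40, since CYP51A1 itself had a similar value (-0.41). In FPKM the largest differences among the 9 were those of CYP51A1 (-24.9) and MSMO1 (-16.7). The sum therefore mainly reflects abundant enzymes. In bulk RNA, fewer cells making a transcript and less transcript per cell cannot be told apart.

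The order of levels with siControl was CYP51A1, MSMO1, NSDHL, LSS, HSD17B7, SC5DL, SQLE, DHCR7 and TM7SF2. With siSNRNP40, NSDHL stood above MSMO1 and SC5DL above HSD17B7, while SQLE (6.41 FPKM) and HSD17B7 (6.37 FPKM) were nearly equal. SC5DL, SQLE and DHCR7 were within 7.82 to 8.09 FPKM with siControl, and without replicate values such neighbours cannot be ordered in either condition.

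**Figure D2:**
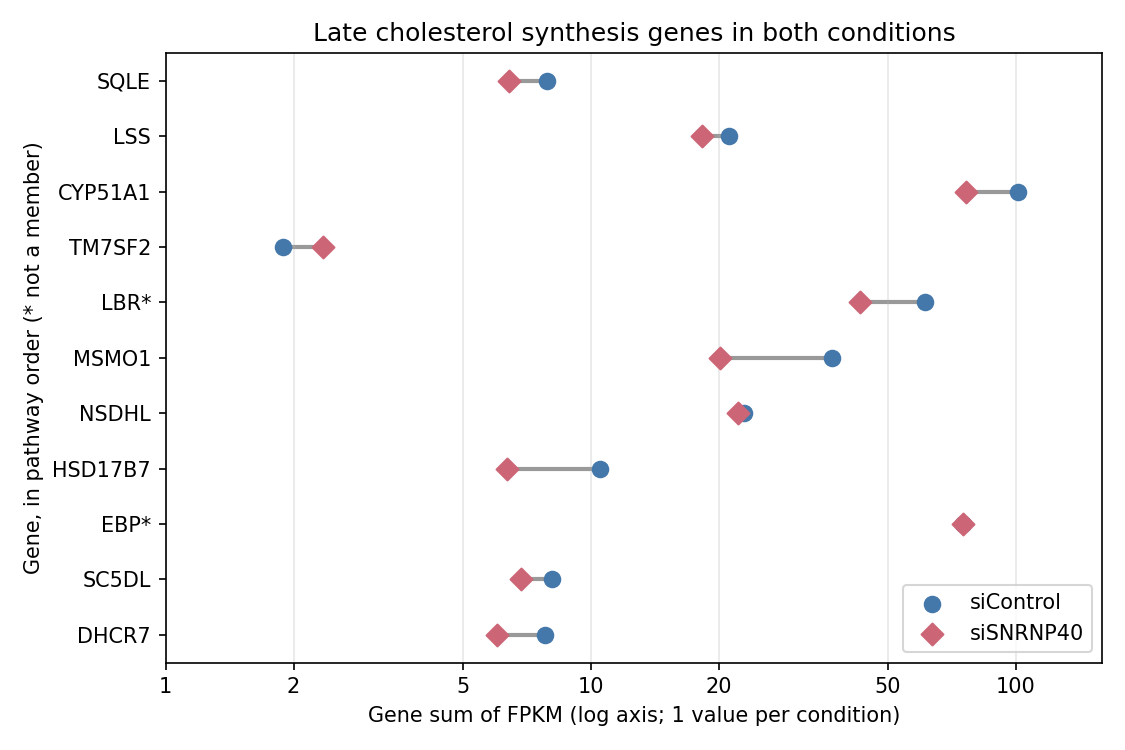
Each row is a gene in pathway order, and the horizontal log axis gives its summed FPKM, with blue circles for siControl and red diamonds for siSNRNP40. The diamond lies left of the circle for 8 of the 9 enzymes, with the longest gaps for MSMO1 and HSD17B7, and TM7SF2 lies far below the other genes. Asterisks mark LBR and EBP, late pathway genes outside the 9.

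The pathway segment opens with squalene epoxidase and lanosterol synthase. SQLE, which oxidizes squalene and is a known control point of the pathway, lies on chromosome 8 of hg19 from 126010720 to 126034525 and is listed as a single transcript. It had 7.87 FPKM with siControl and 6.41 FPKM with siSNRNP40, a log2 fold change of -0.30. This is a modest difference, and 13.0% of expressed genes had a lower log2 fold change.

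LSS, which closes oxidosqualene into the ring system of lanosterol, lies on chromosome 21 from 47608360 to 47648738. Its summed FPKM was 21.1 with siControl and 18.3 with siSNRNP40 (log2 fold change -0.21). The small difference in the sum hid a much larger difference in how the sum was divided among its transcripts, described further on.

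CYP51A1, the cytochrome P450 that removes the first methyl group of lanosterol, lies on chromosome 7 from 91741463 to 91764059. It had 101.3 FPKM with siControl and 76.4 FPKM with siSNRNP40, a log2 fold change of -0.41. It was the most abundant of the 9 in both conditions, and 92.9% of expressed genes had a lower mean FPKM. In FPKM its difference of -24.9 was the largest of the 9, and it was larger than the -16.7 of MSMO1. The annotation places 2 further protein-coding genes over the same locus and strand, and their fragments cannot be told apart from those of CYP51A1. The pseudogene copies CYP51A1P1 and CYP51A1P2 match 47.9% and 47.8% of its transcript at 96.6% and 97.0% identity, and neither symbol is listed in the table, so the effect of adding them could not be computed.

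TM7SF2 reduces the double bond left by CYP51A1 and lies on chromosome 11 from 64879341 to 64883707. Its FPKM was 1.89 with siControl and 2.34 with siSNRNP40 (log2 fold change 0.31). This was the lowest level of the 9, and among the 3775 genes with a mean from 1 to 5 FPKM the middle 90% of log2 fold changes ran from -0.64 to 0.74. LBR, a nuclear envelope protein with the same reductase activity, was far more abundant, at 61.2 FPKM with siControl and 42.9 FPKM with siSNRNP40 (-0.51). The level of LBR was 32.3 times that of TM7SF2 with siControl and 18.3 times with siSNRNP40. The transcripts for this enzymatic step were thus mostly those of LBR, and the 2 genes differed between conditions in opposite directions.

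MSMO1, NSDHL and HSD17B7 act in turn in one reaction cycle that strips the remaining methyl groups from a ring carbon, and are known to be held together by the scaffold protein of C14orf1 (current symbol ERG28). MSMO1, the oxidase, lies on chromosome 4 from 166248818 to 166264314. It had 36.9 FPKM with siControl and 20.2 FPKM with siSNRNP40, a log2 fold change of -0.87, and 1.05% of expressed genes had a lower log2 fold change. This was the largest relative difference among the 9 enzymes.

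HSD17B7, the ketoreductase, lies on chromosome 1 from 162760496 to 162782608 and is listed as a single transcript. It had 10.5 FPKM with siControl and 6.37 FPKM with siSNRNP40 (log2 fold change -0.73), and 1.78% of expressed genes had a lower value. A pseudogene copy, HSD17B7P2, matches 67.6% of the HSD17B7 transcript at 98.4% identity and was listed at 4.03 and 3.44 FPKM, so fragments of gene and copy cannot be fully told apart. With the copy added to the gene, a choice made after seeing the data, the log2 fold change of HSD17B7 was -0.57.

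NSDHL, the decarboxylating dehydrogenase that acts between these enzymes, lies on chromosome X from 151999511 to 152037907. It had 23.0 FPKM with siControl and 22.2 FPKM with siSNRNP40 (log2 fold change -0.051), a difference far smaller than those of the enzymes before and after it in the cycle. The level of MSMO1 was 1.61 times that of NSDHL with siControl and 0.910 times with siSNRNP40. HSD17B7 stood at 0.459 and 0.287 times the level of NSDHL. The ratio of MSMO1 to HSD17B7 was closer between conditions, at 3.50 and 3.17. C14orf1 had 5.97 and 4.52 FPKM (log2 fold change -0.40).

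SC5DL and DHCR7 act near the end of the pathway. EBP, the isomerase that acts just before SC5DL, had 75.1 FPKM in both conditions (log2 fold change -0.00042). The annotation places a further protein-coding gene over most of the EBP locus on the same strand, and its fragments cannot be told apart from those of EBP. SC5DL, which introduces the double bond that cholesterol keeps, lies on chromosome 11 from 121163388 to 121184119. It had 8.09 FPKM with siControl and 6.84 FPKM with siSNRNP40 (log2 fold change -0.24). DHCR7, a reductase whose product is cholesterol or its immediate precursor and whose loss causes Smith-Lemli-Opitz syndrome, lies on chromosome 11 from 71145457 to 71159477. It had 7.82 FPKM with siControl and 6.0 FPKM with siSNRNP40 (log2 fold change -0.38). SC5DL and DHCR7 were both lower, and neither was below -0.5.

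The 9 genes lie on 7 chromosomes, 3 of them on chromosome 11, so they share no neighbourhood. Their canonical transcripts in GENCODE have from 5 exons (SC5DL) to 22 exons (LSS). Those of MSMO1, NSDHL and HSD17B7 have 6, 8 and 9 exons. The relation of exon number to the log2 fold changes was not tested.

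In 3 of the 9 enzymes a single transcript is listed, 5 have 2 transcripts, and LSS has 5. Isoform FPKM depends on how fragments of overlapping transcripts are divided by a statistical model, and the table does not say which annotated isoform a transcript is. The numbers used here follow the order of listing. Among 15 transcripts of the enzymes with a mean of at least 1 FPKM and a finite log2 fold change, 2 were past an absolute log2 fold change of 1, beside 10.5% of 16691 such transcripts in the whole table. Both belong to LSS. The other 3 transcripts had a mean below 1 FPKM, and 2 of them were listed at 0 with siSNRNP40 only.

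In LSS, transcript 3 had 6.31 FPKM with siControl and 0.0240 FPKM with siSNRNP40 (log2 fold change -8.04), and its share of the gene was 29.9% and 0.131%. Transcript 2 differed the other way, at 1.2 and 3.01 FPKM (1.33), and its share was 5.67% and 16.5%. Transcript 5, the most expressed, had 10.7 and 12.6 FPKM, with a share of 50.7% and 68.8%. Transcript 4 had 2.45 and 2.68 FPKM, and transcript 1 had 0.442 FPKM with siControl and was listed at 0 with siSNRNP40. The lower sum of LSS therefore came with a lower value of transcript 3 and higher values of transcripts 2, 4 and 5. The annotation has 2 antisense lncRNAs over LSS, and whether strand was used in counting is not given in the sources used here.

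In CYP51A1 both transcripts were lower by nearly the same ratio, with log2 fold changes of -0.43 and -0.40, and transcript 2 held 79.8% and 80.1% of the gene. In MSMO1 both were lower as well, the main transcript from 31.0 to 15.8 FPKM (-0.98) and the minor one from 5.90 to 4.42 FPKM (-0.42). In NSDHL the minor transcript was lower, from 4.14 to 2.43 FPKM (-0.77), while the main one was slightly higher, from 18.8 to 19.7 FPKM (0.068). SC5DL and DHCR7 were each carried by 1 transcript, with 98.1% and 97.1% of the gene with siControl. The minor transcript of SC5DL had 0.157 FPKM with siControl and was listed at 0 with siSNRNP40, and that of DHCR7 had 0.229 and 0.0267 FPKM.

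**Figure D3:**
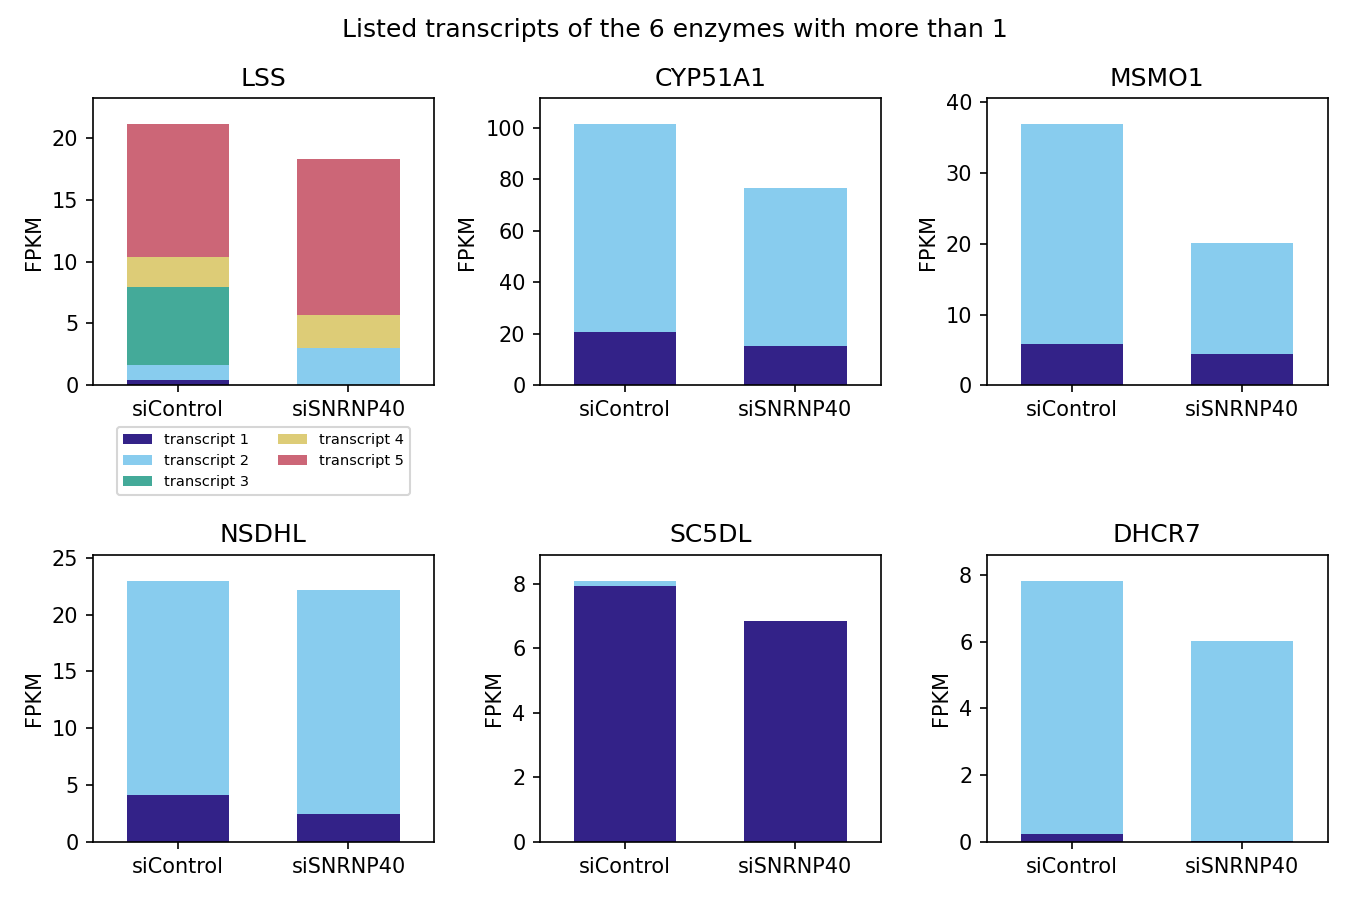
Stacked bars give FPKM, on a linear axis from 0, of the listed transcripts of the 6 enzymes that have more than 1, with siControl on the left and siSNRNP40 on the right of each panel and a colour for each transcript number. In LSS transcript 3 takes 29.9% of the siControl bar and is not visible in the siSNRNP40 bar, whereas the division of CYP51A1 is nearly the same in both.

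The promoter windows of the enzymes were also compared. RefSeq windows on GRCh38.p14, from 250 bases before to 50 bases after an annotated start, were used for 8 of the 9 enzymes (10 windows). No window was used for SQLE, so the motif counts below do not cover that enzyme. The motifs searched were read on both strands: CCAAT, bound by NF-Y, GGGCGG, bound by Sp1, and TCACNCCAC, a form of the sterol regulatory element bound by SREBP. CCAAT occurred in 8 of the 10 windows, beside 34.6% of all 35116 windows, and GGGCGG also in 8 of the 10, beside 45.0%. Both occurred in 7 of the 10 windows, beside 14.4%. The windows used for these shares were not matched to those of the enzymes in GC content or expression. TCACNCCAC occurred in 0 of the 10 and in 1.13% of all windows, which says only that these letters are not in these windows. No CCAAT match overlapped a GGGCGG match. Windows of 1 gene overlap for SC5DL, so the 10 are not independent.

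The windows of 4 enzymes are shown in the direction of the gene, those of the lowest log2 fold changes (MSMO1 and HSD17B7), of the nearly level NSDHL and of the higher TM7SF2. Capitals mark CCAAT and GGGCGG on either strand (also read as ATTGG and CCGCCC). They lie at chr4:165327419-165327718 on the plus strand, chr1:162790452-162790751 on the plus strand, chrX:152830813-152831112 on the plus strand and chr11:65111622-65111921 on the plus strand, in that order:
MSMO1: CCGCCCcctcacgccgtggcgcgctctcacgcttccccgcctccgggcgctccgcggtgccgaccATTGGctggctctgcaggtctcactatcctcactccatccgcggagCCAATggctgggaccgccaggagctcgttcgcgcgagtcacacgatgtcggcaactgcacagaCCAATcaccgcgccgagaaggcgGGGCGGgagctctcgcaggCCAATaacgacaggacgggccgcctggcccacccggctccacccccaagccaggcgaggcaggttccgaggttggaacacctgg
HSD17B7: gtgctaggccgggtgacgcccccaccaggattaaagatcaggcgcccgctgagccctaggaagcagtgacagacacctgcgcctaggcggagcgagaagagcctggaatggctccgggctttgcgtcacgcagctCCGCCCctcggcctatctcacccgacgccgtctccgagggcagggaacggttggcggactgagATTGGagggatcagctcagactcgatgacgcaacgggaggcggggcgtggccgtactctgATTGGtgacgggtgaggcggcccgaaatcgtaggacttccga
NSDHL: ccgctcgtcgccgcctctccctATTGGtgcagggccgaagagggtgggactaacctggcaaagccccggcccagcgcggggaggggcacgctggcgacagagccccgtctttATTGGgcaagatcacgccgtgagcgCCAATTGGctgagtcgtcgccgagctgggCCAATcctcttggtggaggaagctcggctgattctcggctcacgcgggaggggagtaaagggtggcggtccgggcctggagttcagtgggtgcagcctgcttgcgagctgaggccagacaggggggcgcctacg
TM7SF2: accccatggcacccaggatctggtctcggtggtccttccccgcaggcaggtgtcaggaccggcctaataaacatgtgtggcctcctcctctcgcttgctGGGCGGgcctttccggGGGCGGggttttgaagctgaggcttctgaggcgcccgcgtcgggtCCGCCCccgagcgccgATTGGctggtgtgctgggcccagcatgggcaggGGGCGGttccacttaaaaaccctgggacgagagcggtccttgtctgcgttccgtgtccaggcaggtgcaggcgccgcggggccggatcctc
MSMO1 holds 4 CCAAT and 2 GGGCGG matches, and HSD17B7 holds 2 and 1. NSDHL holds 5 CCAAT matches, of which a pair overlaps on opposite strands, and 0 GGGCGG matches, while TM7SF2 holds 1 and 4. The window of CYP51A1, not shown, holds 0 CCAAT and 1 GGGCGG match. The relation of these matches to the FPKM values was not tested.

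Of the 9 mevalonate and early sterol enzymes, which lead up to squalene, 8 were below 0 and 4 were below -0.5, with a median of -0.42. IDI1, the isomerase of isoprenoid units, was the lowest at -1.11 (63.6 and 29.4 FPKM), and PMVK, which phosphorylates phosphomevalonate, was the highest at 0.27 (5.19 and 6.24 FPKM). All values come from the same libraries and therefore share any difference between them.

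Genes that regulate the pathway were also mostly lower. Of the 7 sterol regulators, 6 were below 0 and 0 were below -0.5, with a median of -0.39. The lowest was INSIG1, which holds SREBP in the endoplasmic reticulum and is itself an SREBP target, at -0.49 (61.0 and 43.5 FPKM). The highest was SCAP, the escort protein of SREBP, at 0.094 (6.01 and 6.41 FPKM). SREBF2 itself, named after its value was seen, had 4.0 and 3.05 FPKM (-0.39).

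Partner proteins of the late enzymes were divided in direction. Of 6 partners, among them the electron donors POR and the cytochrome b5 proteins, 3 were below 0 and 3 above, with a median of -0.0059, from -0.40 for C14orf1 to 0.28 for CYB5A. In the same libraries 10 of 11 interferon-stimulated genes were higher with siSNRNP40, 5 of them above 0.5, with a median of 0.46 and the highest value, 0.91, for IFIH1 (12.8 and 24.1 FPKM). Their part in the lower values of the sterol enzymes was not tested.

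**Figure D4:**
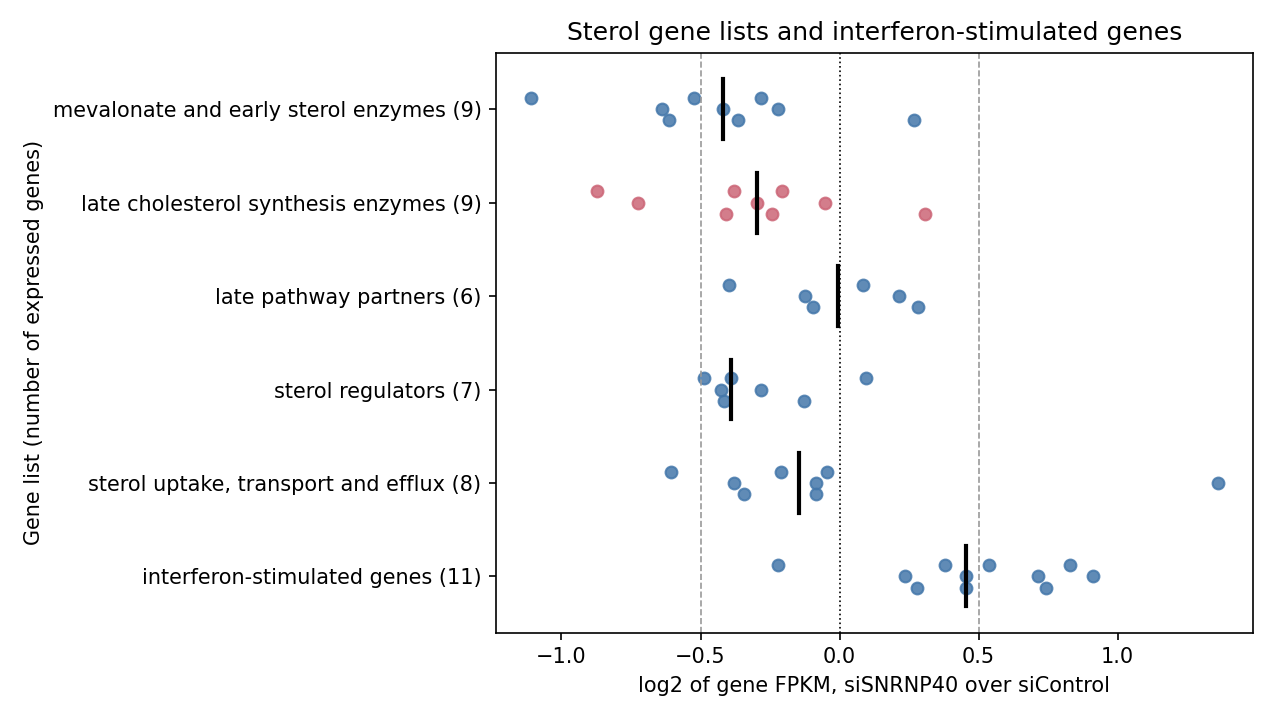
Each point is an expressed gene at its log2 of gene FPKM, siSNRNP40 over siControl, in 6 lists; black bars are list medians, dashed lines mark -0.5 and 0.5, and the 9 enzymes are red. Medians run from -0.42 for the mevalonate and early sterol enzymes to 0.46 for the interferon-stimulated genes, with the 9 enzymes at -0.30.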

How the data were processed

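RNA of 4 libraries, 2 with siControl and 2 with siSNRNP40, was analysed from the deposited transcript table. Adapters were removed by the authors (cutadapt 1.2.1) and reads were aligned to hg19 (TopHat 2.0.8), assembled and merged (Cufflinks, cuffmerge). FPKM per transcript was then estimated by the authors (cuffdiff 2.0.2) as 1 value per condition. Per the study's methods, replicates with different siRNAs were averaged. Sharing of fragments among isoforms affects single transcripts more than gene sums. Columns holding the authors' own fold changes and significance were left out. FPKM were summed per gene symbol, without a pseudocount, and genes with a mean of at least 1 FPKM and values above 0 in both conditions were called expressed. Differences past 0.5 and past the study's limit of 1 (absolute log2) were counted, without a test. File starts were converted to count from 1. Exons and overlapping genes came from GENCODE release 44 on GRCh37. Copies were searched with blastn among annotated transcripts, at 90% identity over at least 30% of the canonical transcript. Named genes were the 9 enzymes, EBP, LBR, SNRNP40 and the highest and lowest gene of each list, except for items that are not reported here. Members and lists were chosen with earlier results of these data known. Summing and calling were checked on simulated data. Python 3.11.15, numpy 2.4.6 and pandas 2.3.3 were used.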

Additional observations from a re-analysis of the deposited data

How the results depend on the processing

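No paired analysis was possible because each condition has 1 value per transcript, and for the same reason no library could be left out. Depth is unknown, so its limits cannot be stated beyond the wider scatter of low genes. A log2 value was counted as moved at a difference of 0.1 or more, and a count at a ratio above 1.5. Of 46 recomputed log2 fold changes of the 9 enzymes, 42 stayed within 0.1. Many of these could not have moved that far. Each scaling shifts all genes by the same small value, and 3 enzymes have a single listed transcript. The count therefore says little about robustness. The 4 values that moved are given next. With the most expressed transcript alone, LSS was 0.23, NSDHL 0.068 and MSMO1 -0.98. With HSD17B7P2 added, a setting chosen after seeing the data, HSD17B7 was -0.57. The number of enzymes below -0.5 was 2 in every setting run for it, and their median was -0.30 with median centring, -0.27 with upper-quartile scaling, -0.26 with a pseudocount of 1 and -0.24 without MSMO1 and HSD17B7, the last chosen after seeing the data. Scaling changed little because the shifts were small (0.0034 for median centring and -0.031 for the upper quartile, log2). The 1270 expressed genes past an absolute log2 fold change of 0.5 became 4183 without an expression filter, 501 at a mean of at least 5 FPKM (fewer genes enter) and 706 with a pseudocount of 1.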

Other observations

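Of 10 genes of sterol uptake, transport and efflux, 8 were expressed, and 7 of these were below 0 with siSNRNP40 and 1 above, with a median log2 fold change of -0.15. ABCA1, which exports cholesterol to apolipoproteins, was the lowest at -0.61 (8.34 FPKM with siControl and 5.48 FPKM with siSNRNP40). CH25H, which makes 25-hydroxycholesterol and is known to be induced by interferon, was the highest at 1.36 (0.622 and 1.60 FPKM). Its level was close to the expression limit, where fold changes scatter most, and its relation to the sterol enzymes was not tested.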
